A study of Mus musculus with 15 samples.

Results

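Acetylation of histone H3 at lysine 27 (H3K27ac) was compared by ChIP-seq between the nucleus accumbens of mice given repeated cocaine and that of mice given saline. The regions described are all those on chromosomes 1 to 19 in the deposited H3K27ac table, 49298 of its 49712 regions. They cover 72.3 Mb of the mm9 build. The cocaine group consisted of C57BL/6 mice given 7 daily intraperitoneal injections at 20 mg/kg, and the control group of C57BL/6 mice labelled as saline treated. Each group had 3 H3K27ac libraries and 1 input library, which is chromatin sequenced without antibody. The libraries were numbered 7, 9 and 11 in the cocaine group and 8, 10 and 12 in the saline group, after their names. The time between the last injection and collection, the age and sex of the mice, and whether a library came from 1 mouse or from several are not given in the sources used here. No batch is named in the labels. The library names also end in letters, A, B and C for saline 8, 10 and 12 and D, E and F for cocaine 7, 9 and 11. What the letters stand for is not given, and they divide as the treatments do. The p-values thus rest on variation among 3 libraries per group, which may be technical. For all but 852 regions that variation was pooled across regions of like level, not taken from the region itself.

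H3K27ac is placed on nucleosomes by the acetyltransferases CBP and p300 and removed by histone deacetylases. It marks active promoters and active enhancers, and a cell's set of acetylated enhancers reflects its identity and its recent activity. The nucleus accumbens is a part of the ventral striatum in which dopamine released by cocaine acts mainly on medium spiny neurons, and repeated exposure is known to alter histone acetylation there. The tissue is a mixture of neurons and glia, so a lower value may reflect fewer cells with the mark or less of the mark per cell, and these cannot be told apart. No genome or annotation of the mm9 build was used here, so regions are given by position, no gene is assigned to them, and the tissue was not checked against its marker genes.

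The listed regions were places of clear enrichment. The group mean exceeded its input library by a median of 3.99 times in cocaine and 4.02 times in saline, as the authors' deposited ratios give it. Between the tenth and the ninetieth percentile, regions lay from 2.69 to 6.08 times input in cocaine and from 2.70 to 6.27 times in saline. The level per kb, taken as the mean normalised count over the 6 libraries divided by the length, had a median of 373 and ranged from 104 to 1388. Region length ranged from 1000 to 10200 bp with a median of 1200 bp, and 35.3% of the regions had the shortest length, 1000 bp. A region held a median of 473 to 535 reads per library, and a library held 29.6 to 32.9 M (1000000) reads in the regions, where 15333 regions overlapped another and their shared reads count more than once.

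Only 7 regions had less signal than input in both groups. The lowest ratios lay close together on chromosome 11, in regions starting at 3056801, 3046401 and 3091901. The first of these, chr11:3056801-3057800, had 0.35 times input in cocaine and 0.38 times in saline, where cocaine libraries averaged 536 ± 17.2 normalised counts and saline libraries 544 ± 25.8 (SD, n = 3 each). None of the 7 passed the test of a difference described next.

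Cocaine and saline were first compared region by region. H3K27ac was lower after cocaine in more regions than it was higher, and nearly all changes were small. By limma on log2(normalised count + 1), with Benjamini-Hochberg adjustment over the 49298 regions and a threshold of 0.05, 6389 regions (13.0%) differed. Of these, 1686 (3.42%) were higher and 4703 (9.54%) were lower. The median log2 fold change was 0.17 in the higher regions, a gain of 12.3%, and -0.16 in the lower ones, which fell by 10.6%. Higher values reached at most 0.44 on the log2 scale. Regions that changed by 0.5 or more on the log2 scale numbered 42, all of them lower after cocaine, and 18 of these passed the test.

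In the same comparison the 3 cocaine values and the 3 saline values did not overlap in 29.1% of regions. All cocaine values lay above all saline values in 5961 regions and below them in 8366. Among the called regions this held for 1556 of the 1686 higher and 4044 of the 4703 lower ones. These calls describe the listed regions alone, because the caller had already used the same 6 libraries to choose them. No region of 1000 bp, of 17387, had an absolute log2 fold change under 0.01, while 3270 of them lay between 0.02 and 0.03. With each region's own variance, in place of one shared across regions, limma called 2 regions, and 8428 had an unadjusted p below 0.05. Higher regions made up 26.4% of the calls on the counts as deposited, 36.7% after cyclic loess scaling (2703 higher and 4654 lower) and 43.5% after quantile scaling (3238 higher and 4212 lower).

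**Figure D1:**
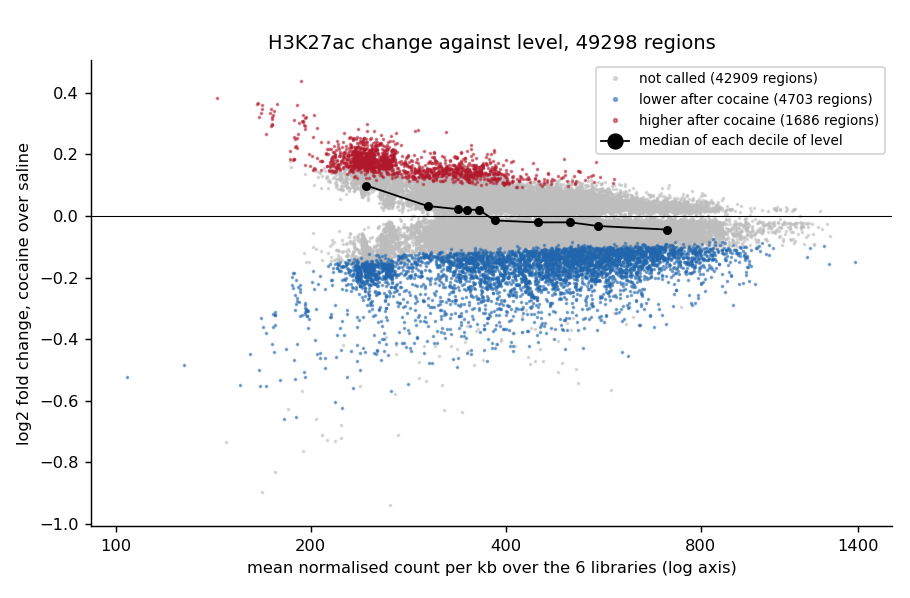
Log2 fold change of each region (vertical axis) against its mean normalised count per kb over the 6 libraries (horizontal, log axis); points are regions, coloured by the limma call, and the black line joins the medians of the 10 deciles of level. Called gains sit at the left and the decile medians run from 0.099 at the lowest level to -0.044 at the highest.

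The regions that rose and those that fell differed in level. The caller kept windows above a count cutoff, so weak regions may have been listed through the group in which they were higher. How far this shaped the calls at low level, in either direction, was not tested. Higher regions were weakly marked, with a median of 258 normalised counts per kb, 3.09 times input in cocaine and 2.73 times in saline. Lower regions were more strongly marked, with a median of 462 per kb, 4.48 times input in cocaine and 5.10 times in saline. Lower regions were also longer, with a median of 1500 bp against 1200 bp in the higher regions and in all regions. Losses were found at both ends of the range of level. The top decile held 931 lower regions (18.9%) and 0 higher ones, and the lowest decile held 595 lower (12.1%) and 897 higher regions (18.2%), beside 9.54% and 3.42% over all regions. The 42 regions that fell by 0.5 or more had a median level of 218 per kb, below that of all regions.

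The input libraries were examined in the same regions. The log2 ratio of cocaine input to saline input had a median of 0.013 in the higher regions, 0.011 in the lower ones and 0.011 in all regions. Across the 49298 regions, which share these 2 libraries, Pearson's r between the input ratio and the H3K27ac change was -0.0037. After division by input, the direction was kept in 79.3% of the higher, 84.8% of the lower and 64.9% of all regions. With 1 input library per treatment, these ratios have no replicate.

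The named regions show the size of the changes in each library. The largest called gain was at chr19:53831501-53832700. Its normalised counts were 259, 288 and 253 in cocaine libraries 7, 9 and 11, and 199, 177 and 215 in saline libraries 8, 10 and 12. All cocaine values lay above all saline values, and the log2 fold change was 0.44 ± 0.061 (SE, limma adjusted p = 1.8e-10). The level rose from 1.88 times input in saline to 2.66 times in cocaine. Of the 17 other listed regions within 100 kb of it, none passed the test, and 10 of the 17 had a positive log2 fold change.

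The second gain, chr3:51473301-51474600, was closer to background. Cocaine libraries 7, 9 and 11 held 226, 200 and 205 normalised counts, and saline libraries 8, 10 and 12 held 167, 159 and 158. The saline libraries were within 1.06-fold of each other and the cocaine libraries within 1.13-fold, and the log2 fold change was 0.38 ± 0.066 (SE, limma adjusted p = 9.4e-07). This region stood at 1.55 times input in cocaine, the lowest ratio among the 6 largest gains.

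The other 4 of the 6 largest gains were regions of 1000 bp. At chr5:117802201-117803200 the values were 183, 185 and 193 in cocaine and 147, 137 and 150 in saline, in the same order of libraries. The cocaine libraries differed by no more than 1.05-fold, and the log2 fold change was 0.37 ± 0.070 (SE, limma adjusted p = 1.0e-05). At chr9:60931401-60932400 the cocaine mean was 186 ± 2.99 and the saline mean 145 ± 12.6 (SD, n = 3 each), and at chr9:104157201-104158200 they were 199 ± 7.31 and 155 ± 16.2. The sixth, chr7:146023501-146024500, had 190 ± 3.52 in cocaine and 147 ± 7.74 in saline. In the fifth and the sixth gain the ratio over input ran the other way, at 2.20 times in cocaine against 2.27 in saline for the fifth and 1.70 against 1.78 for the sixth.

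The largest losses exceeded the largest gains, although the medians over all called regions were alike in size, and the saline libraries spread widely in most of them. The largest called loss, chr13:35832901-35833900, had normalised counts of 130, 159 and 131 in cocaine libraries 7, 9 and 11. Saline libraries 8, 10 and 12 held 270, 223 and 179. No value overlapped, although saline 8 stood far above saline 12. The log2 fold change was -0.66 ± 0.078 (SE, limma adjusted p = 8.9e-11), a fall from 3.01 to 2.29 times input. No other region was listed within 100 kb.

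The second loss was at chr17:23836201-23837200. It had 157, 153 and 129 in the cocaine libraries and 287, 230 and 183 in the saline libraries, again with saline 8 highest and saline 12 lowest. Its log2 fold change was -0.65 ± 0.12 (SE, limma adjusted p = 0.0015), and without saline library 10 the adjusted p was 0.067. The third, chr12:119081501-119082500, had 161, 223 and 147 in cocaine against 296, 259 and 253 in saline. Here cocaine 9 stood 1.52-fold above cocaine 11. The third loss had a log2 fold change of -0.62 ± 0.13 (SE, limma adjusted p = 0.0066), with adjusted p values of 0.055 without cocaine library 7 and 0.086 without saline library 10.

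The remaining losses showed the same order of the saline libraries. At chr16:32643701-32644700 the cocaine mean was 171 ± 12.3 and the saline mean 264 ± 57.7 (SD, n = 3 each), a step from 4.56 to 2.59 times input. On chromosome 9, chr9:114299401-114300600 had 246, 281 and 241 in the cocaine libraries and 436, 384 and 326 in the saline libraries. This was the smallest adjusted p of the 12, with a log2 fold change of -0.57 ± 0.054 (SE, limma adjusted p = 8.2e-20), and both other listed regions within 100 kb had negative log2 fold changes, 1 of them called. At chr9:67608001-67609200 the values were 219, 250 and 206 in cocaine and 379, 340 and 281 in saline. In all 6 losses saline library 8 was the highest and saline library 12 the lowest. All 12 named gains and losses kept their direction under cyclic loess and quantile scaling. The other settings could not reverse it, because these regions were picked for groups that do not overlap.

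**Figure D2:**
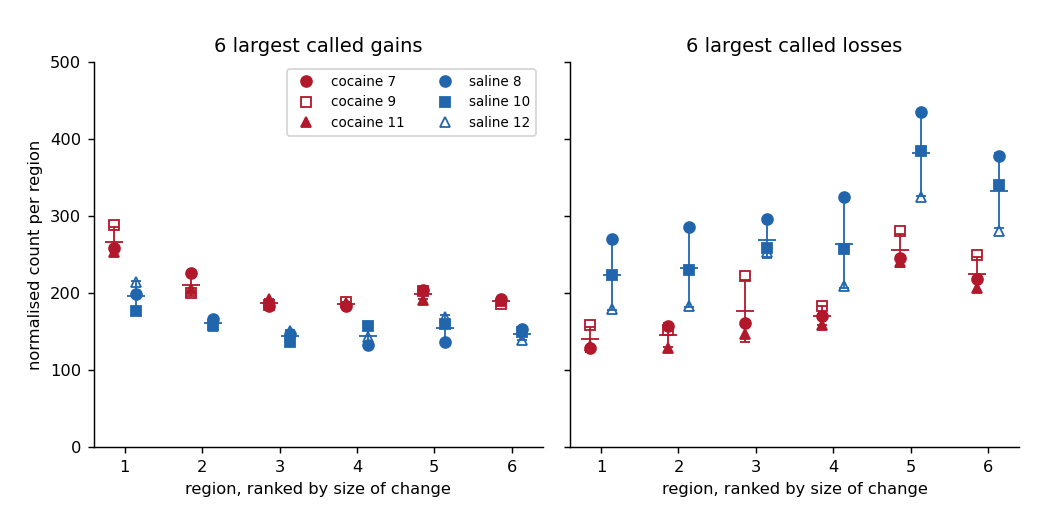
Normalised count per region (vertical axis) in each of the 6 libraries for the 6 largest called gains (left) and the 6 largest called losses (right); symbols are libraries, and bars are the mean and SD of the 3 libraries of a group. In each of the 6 losses saline library 8 is highest and saline library 12 lowest, while the gains show no such fixed order.

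The largest falls of all were not called. At chr10:7675401-7676600, the region with the largest range among saline libraries, the values were 183, 278 and 186 in cocaine and 559, 411 and 292 in saline. Its log2 fold change was -0.94 ± 0.33 (SE, limma adjusted p = 0.18), and the saline libraries spanned 1.91-fold. The largest range among cocaine libraries was at chr11:82745201-82746400, with 304, 428 and 247 in cocaine and 542, 474 and 471 in saline. There the log2 fold change was -0.64 ± 0.24 (SE, limma adjusted p = 0.20), and the ratio over input was 4.85 in cocaine and 10.18 in saline. With moderation that is not robust both passed (limma adjusted p = 2.4e-60 and 3.8e-34), and without cocaine library 9 the second passed as well (-0.85, adjusted p = 2.6e-46). In both regions cocaine library 9 was the highest cocaine library and saline library 8 the highest saline library.

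That order recurred across the regions that fell. In the 4703 lower regions, saline 8 exceeded saline 10 and saline 10 exceeded saline 12 in 66.0%, against 29.3% of all regions. Cocaine 9 was the highest cocaine library in 75.6% of the lower regions and in 34.1% of all regions. Both held together in 54.9% of the lower regions, 3.68% of the higher regions and 13.2% of all regions. Among the 42 regions that fell by at least 0.5, called or not, both held in 92.9%. These shares count the order seen in losses and not its mirror image. Cocaine 9 was the lowest cocaine library in 42.3% of the higher regions and in 34.9% of all regions.

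The libraries formed a graded series in the lower regions. The median deviation from the mean of the 6 libraries was -0.10 for cocaine 7 and for cocaine 11, and -0.040 for cocaine 9. It was 0.022 for saline 12, 0.072 for saline 10 and 0.15 for saline 8. Saline 12 exceeded cocaine 9 by a median of 0.064, while saline 8 exceeded saline 12, of its own group, by 0.13. The higher regions were less graded, and their order was in part the mirror image. Their cocaine medians were 0.070 for cocaine 9 and 0.090 for cocaine 7 and for cocaine 11. Their saline medians ran from -0.070 for saline 10 to -0.095 for saline 8. Without saline library 8, 3646 regions were called, 1088 higher and 2558 lower.

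**Figure D3:**
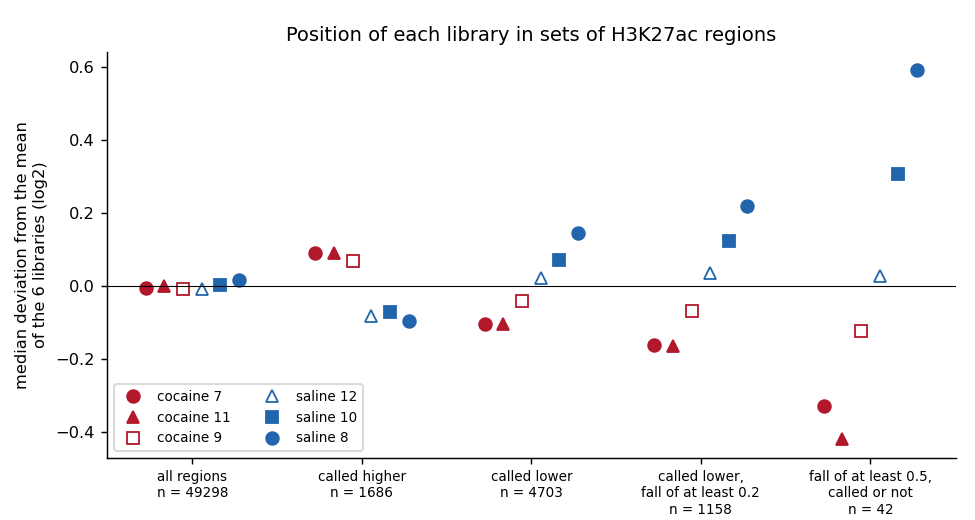
Median deviation of each library from the mean of the 6 libraries, in log2 units (vertical axis), for 5 sets of regions (horizontal); red symbols are cocaine and blue symbols saline libraries. In the called gains the 2 groups form separate clusters, and in the losses the libraries run in order from cocaine 11 and 7 through cocaine 9 and saline 12 to saline 10 and 8.

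The same axis carried most of the variation among libraries in the listed regions. The first principal component of the log2 values held 55.9% of the variance and ordered the libraries from cocaine 7 and 11 through cocaine 9, saline 12 and saline 10 to saline 8. The caller had chosen the regions by a test between the groups in these same libraries, which favours a component that parts the groups. Differences between pairs of libraries that share no library were compared across the 49298 regions. Saline 8 minus saline 12 had a Pearson's r of 0.18 with cocaine 9 minus cocaine 11, and of -0.34 with cocaine 7 minus saline 10. The difference cocaine 9 minus cocaine 11 had an r of -0.21 with cocaine 7 minus saline 10, and saline 10 minus saline 12 one of -0.082 with cocaine 7 minus cocaine 11. The regions were chosen in the same libraries, and neighbouring and overlapping regions are not independent points, so these values are a description.

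The spread between libraries was set against counting error, the spread that a random draw of the reads gives alone. The squared difference of a pair of libraries, divided by its counting variance and averaged over regions, is 1 where counting error is the only source. It was 0.62 to 0.75 for the 3 cocaine pairs, 0.78 for saline 10 and 12, 0.92 for saline 8 and 10, and 1.42 for saline 8 and 12. Pairs of a cocaine and a saline library ranged from 0.93 for cocaine 9 and saline 12 to 2.80 for cocaine 7 and saline 8. Values under 1 occurred within groups and in 1 pair across groups, so no 2 libraries were taken as 1, and all 6 were counted as separate samples. The caller chose the regions by a test on these same libraries, so the values hold for the listed regions alone. Whether that choice lowered the spread within groups was not tested.

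Region by region, the spread of the cocaine group exceeded the 95% bound of counting error in 0.80% of regions, where counting error alone gives 5%. In the saline group the share was 5.49%. The called sets differed: the bound was passed in 0.18% of the higher regions in cocaine and 0.53% in saline, and in 4.74% of the lower regions in cocaine and 34.8% in saline. The median limma standard error over all regions, 0.045, was below the 0.052 that counting error gives. When the standard error was held at or above the counting error, with a p from the normal distribution, 3955 regions were called, 489 higher and 3466 lower. Of the called regions, 29.0% of the higher and 73.1% of the lower passed here too, among them all 12 named gains and losses. This alternative, chosen after seeing the data, was not stricter for every region, because a normal p replaced that of limma. For the second loss the adjusted p went from 0.0015 (limma) to 4.6e-06 (normal), and 29 regions not called before passed. How far this shaped the shares of 29.0% and 73.1% was not tested.

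**Figure D4:**
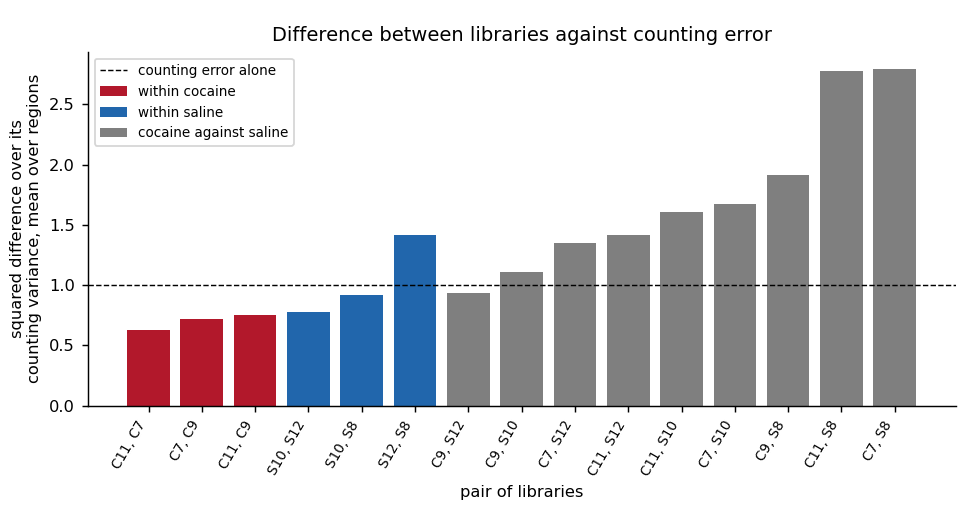
Squared difference between 2 libraries over its counting variance, averaged over all regions (vertical axis), for each of the 15 pairs of libraries (horizontal; C, cocaine, and S, saline, with the library number); the dashed line at 1 is counting error alone. All 3 cocaine pairs lie below the line and the pairs of cocaine 7 or 11 with saline 8 are the highest.

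Regions whose spread was large for their level were mostly regions of loss. Robust moderation set 852 regions apart as unusually variable. Of these, 836 (98.1%) had lower values after cocaine, 734 were called lower, and saline 8 was the highest of the 6 libraries in 96.8%. Their median level was 499 per kb, above the 373 of all regions.

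The strongest regions were compared next. The 3 highest levels per kb were at chr12:88224801-88225800, chr3:152643801-152644900 and chr1:89406001-89407000. The first held 1306, 1374 and 1267 normalised counts in cocaine libraries 7, 9 and 11 and 1589, 1423 and 1368 in saline libraries 8, 10 and 12. Cocaine 9 overlapped saline 12, and the log2 fold change of -0.15 ± 0.037 (SE, limma adjusted p = 0.0018) was -0.086 without saline library 8 (adjusted p = 0.11) and -0.12 without cocaine library 11 (adjusted p = 0.077). The third fell by 0.16 on the log2 scale (SE 0.038, limma adjusted p = 0.00099), from 1464, 1308 and 1234 in saline to 1204, 1217 and 1163 in cocaine, with no overlap. Its value was -0.088 without saline library 8 (adjusted p = 0.12). The second, with 1333, 1396 and 1360 in cocaine and 1535, 1409 and 1337 in saline, did not pass (limma adjusted p = 0.25).

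Length was examined as a second feature. Stretches of H3K27ac over several kb are known to mark clusters of enhancers near genes of cell identity. A listed length is that of joined caller windows of the same direction of change, so it need not be the width of such a stretch. In the 439 regions longer than 4000 bp the log2 fold change had a median of 0.030, and 22 (5.01%) were called higher and 61 (13.9%) lower, both above the shares over all regions. In the 5324 regions of 2100 to 3000 bp the median was -0.042, and 136 (2.55%) were called higher and 959 lower, together 20.6% of the class. The longer class overlapped between groups in the library medians, from -0.018 for saline 12 to 0.012 for saline 8, and the shorter class did not. The difference between these classes was not tested. Longer regions hold more reads, and the SE was 0.028 in the longest region beside a median of 0.045 over all regions. Smaller changes can thus pass in longer regions.

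The longest region, chr12:109429801-109440000, spans 10200 bp. Its normalised counts were 6259, 6190 and 6225 in cocaine libraries 7, 9 and 11 and 5937, 6001 and 5911 in saline libraries 8, 10 and 12. The groups did not overlap, and each stayed within 1.02-fold, yet the log2 fold change of 0.065 ± 0.028 did not pass (SE, limma adjusted p = 0.10). It passed after cyclic loess scaling (0.11, adjusted p = 1.8e-07), after quantile scaling (0.071, adjusted p = 0.0023) and without saline library 8 (0.064, adjusted p = 0.031). At chr4:154492301-154502000 the values were 5537, 5348 and 5593 in cocaine and 5345, 5363 and 5293 in saline, and the groups overlapped (log2 fold change 0.042 ± 0.028, SE, limma adjusted p = 0.33). This one too passed after cyclic loess (0.087, adjusted p = 1.8e-04) and quantile scaling (0.093, adjusted p = 5.5e-05). At chr11:119872601-119882000 they were 5050, 5128 and 5042 in cocaine and 5329, 5174 and 5298 in saline, lower in all 3 cocaine libraries without passing (limma adjusted p = 0.20).

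**Figure D5:**
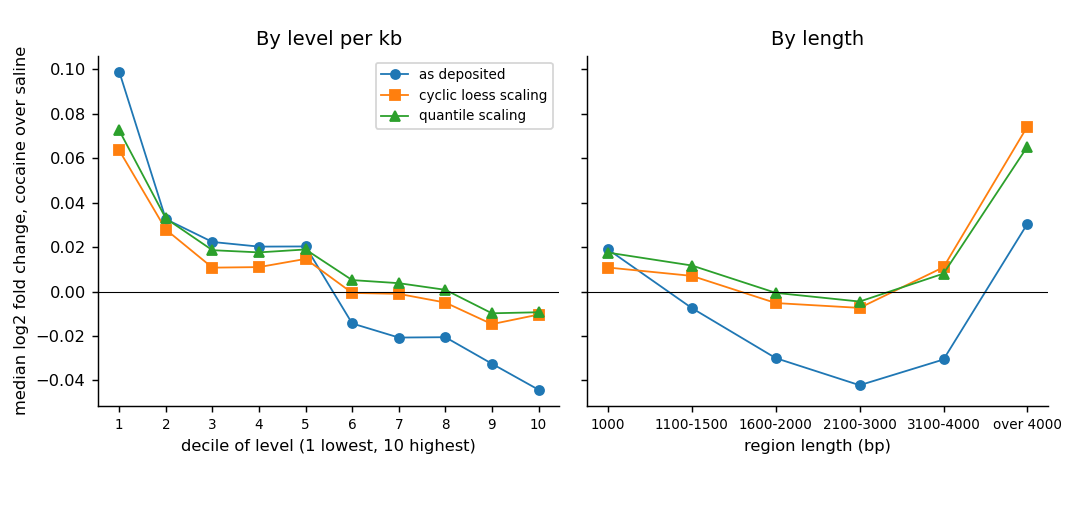
Median log2 fold change (vertical axis) by decile of level per kb (left) and by region length in bp (right) for the normalised counts as deposited and after 2 other scalings of the 6 libraries. The lowest decile and the regions longer than 4000 bp lie above 0 under all 3 scalings, and the medians of the upper deciles move toward 0 under cyclic loess and quantile scaling.

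Change varied with length and level together. In the lower tercile of level, medians were positive in every length class, from 0.030 in regions of 1100 to 1500 bp to 0.071 in the 16 regions longer than 4000 bp. In the upper tercile they were negative in every class, from -0.055 at 2100 to 3000 bp to -0.021 at 1000 bp. The middle tercile was mixed, with -0.023 at 1600 to 2000 bp and 0.059 above 4000 bp. The summed signal showed the shift in each library. The top decile of level held 20.0%, 20.2% and 20.1% of all normalised counts in cocaine libraries 7, 9 and 11. It held 20.9%, 20.5% and 20.2% in saline libraries 8, 10 and 12, so that saline 12 lay next to cocaine 9. The lowest decile held 4.24 ± 0.0059% in the cocaine libraries and 4.09 ± 0.075% in the saline libraries (SD, n = 3 each).

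The changes were spread over the genome. Each of the 19 chromosomes had both called gains and called losses. The share of regions called higher ran from 2.60% on chromosome 17 to 5.43% on chromosome 13, and the share called lower from 7.19% on chromosome 12 to 11.6% on chromosome 3. In windows of 1 Mb, 1492 of the 2056 windows with a region held a called loss, 879 held a called gain, 741 held both and 426 held neither. The median log2 fold change was above 0 in 381 of the 814 windows with at least 20 regions.

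A few windows moved mostly one way. They were picked by their values and are given as a description. On chromosome 13, the window from 45000001 to 46000000 held 52 regions, of which 43 had a positive log2 fold change and 8 were called higher and 0 lower. Its summed counts were 26989, 26829 and 26889 in cocaine libraries 7, 9 and 11 and 25602, 25826 and 25677 in saline libraries 8, 10 and 12. The cocaine sums were close to each other and all above the saline sums. On chromosome 14, the window from 30000001 to 31000000 had the most called gains, 13 of its 74 regions, with 1 called loss.

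Windows of loss had the wider saline spread seen before. On chromosome 11, the window from 88000001 to 89000000 held 30 regions, 25 with a negative log2 fold change and 9 called lower. The sums there were 15227, 15476 and 15219 in cocaine and 16754, 16150 and 15991 in saline. On chromosome 8, the window from 23000001 to 24000000 held 21 regions, 18 negative and 7 called lower, with sums of 13040, 13366 and 13141 in cocaine and 14319, 14080 and 13618 in saline. The most called losses, 22 of 218 regions, lay in the window from 80000001 to 81000000 on chromosome 10. That share is near the 9.54% of all regions called lower. This window did not move mostly one way, as 101 regions had a positive and 117 a negative log2 fold change.

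Neighbouring regions moved together weakly. Between a region and the next one on the chromosome, Pearson's r of the log2 fold changes was 0.22 for gaps up to 1000 bp (8899 pairs), 0.17 for gaps of 5001 to 20000 bp (9552 pairs) and 0.082 beyond 100000 bp (4263 pairs). Overlapping neighbours had an r of -0.66. Of those 8560 overlapping pairs, 8417 carried opposite directions in the authors' deposited table, which lists rises and falls as separate regions. The share of next regions with the same call did not fall steadily with distance, but its base changed with the gap. The first region of a pair was a called loss in 566 of 8899 pairs at gaps up to 1000 bp. Beyond 100000 bp it was one in 851 of 4263 pairs. For called gains these numbers were 257 and 196. After a called loss, the next region was a called loss in 18.2% of cases at gaps up to 1000 bp, 13.1% at 1001 to 5000 bp, 15.6% at 5001 to 20000 bp, 20.1% at 20001 to 100000 bp and 23.3% beyond, where 9.54% of all regions were called losses. After a called gain, the next was a called gain in 7.00%, 12.6%, 4.22%, 9.39% and 6.63% of cases at the same gaps, beside 3.42% of all regions. Regions that overlap no other region gave 5968 calls among 33965 tested, 1725 higher and 4243 lower.

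The authors' deposited p-values of the regions were set beside the limma calls. They lay below 1e-09 in 60.6% of regions, and the median absolute log2 fold change of those regions was 0.056. In 71.5% of them the cocaine and saline values overlapped. That is near the share over all regions, where 29.1% did not overlap. For regions of 1000 bp, Spearman's rho across regions was 0.70 between the deposited p-value and the level, and -0.44 between the deposited p-value and the absolute log2 fold change. Of the 6389 regions that limma called, 3176 had a deposited p-value below 1e-09 and 1359 had one above 0.05.

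Few of these regions held a region of the deposited table of 5-hydroxymethylcytosine, which was measured in separate libraries. That table lists regions from a comparison of groups and is not a map of all sites with 5-hydroxymethylcytosine. At least 1 bp was shared in 1125 regions (2.28%). Their level was like that of the rest, with a median of 377 per kb against 373. Of these 1125 regions 37 (3.29%) were called higher and 68 (6.04%) lower, beside 3.42% and 9.62% of the regions without one, and the difference was not tested.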

How the data were processed

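H3K27ac ChIP-seq was measured in 3 cocaine and 3 saline libraries, each group with 1 input library. The submitters' processing notes name Bowtie 0.12.9 and the mm9 build. Per the file headers, the authors compared the groups with diffReps 1.54 (negative binomial test, window 1000 bp, step 100 bp, p-value cutoff 0.0001). The caller's deviation cutoff, a lower bound on window counts, was 2. The deposited table gives each library's normalised count per region (a signal scaled by the caller), the ratio of each group mean to its input, a log2 fold change and a p-value. Each library's deposited values were integer multiples of its own step (within 0.1 read in 100.0% of values), which gave the reads behind them.

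Library order within a group follows the file headers. The main test was limma 3.58.1 in R 4.3.3 on log2(normalised count + 1), with a mean-variance trend and robust moderation, over all regions on chromosomes 1 to 19. Fold changes on this scale slightly understate those of low regions. Tested on simulated data with 49298 regions, it called 97 of 100 regions changed 1.25-fold, 100 of 100 changed 1.5-fold and 5 of 49098 unchanged ones. Those data held no factor shared between regions, so they do not give the error rate here. Summaries and plots used matplotlib 3.10.9, scipy 1.17.1, pandas 2.3.3 and numpy 2.4.6 under Python 3.11.15. Level is per kb because regions differ in length.

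Regions were named by rule: the 6 largest gains and 6 largest losses among called regions whose groups did not overlap, at most 1 per 1000000 bp; the 3 highest per kb; the 3 longest; and the region with the largest range within each group. The regions, lists and tests were chosen with earlier results of these data known. Gene lists were not analysed here. The number of unused per-library columns was 0. Alternatives were other thresholds, pseudocounts, filters, scalings and variance models, all chromosomes, leaving out each library and, added after seeing the data, a floor on the standard error and regions without overlaps.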

Additional observations from a re-analysis of the deposited data

How the results depend on the processing

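With a median of 473 to 535 reads per region and library, counting error alone gives a median standard error of 0.052 on the log2 scale, so changes below that size are not resolved at this depth. The regions were also chosen in the same 3 libraries per group. The cause of the changes below was not tested, except that a stricter threshold calls fewer regions by construction. Leaving out a library did not always do so, as 6815 regions were called without saline 12. The 6389 called regions (1686 higher, 4703 lower) became 3209 (495 and 2714) at an adjusted p below 0.01 and 1443 (285 and 1158) where a change of 0.2 or more on the log2 scale was also required. With each region's own variance 2 were called, 1 in each direction. Cyclic loess scaling raised the higher regions to 2703 and quantile scaling to 3238. With 1 library left out, 3015 to 6815 regions were called, 621 to 1437 higher and 2391 to 5378 lower, and the fewest were left without cocaine 7 (3015), without cocaine 11 (3024) and without saline 8 (3646, of which 1088 higher and 2558 lower). A standard error held at the counting error gave 3955 regions, of which 489 were higher. Pseudocount 8 gave 6392 regions, a mean of at least 200 normalised counts 6295, moderation that was not robust 6328, all chromosomes 6479, and regions without overlaps 5968. None of the 6389 regions changed sign in any of these settings in which it was tested. Settings that alter only the threshold, the variance model or the set of regions keep the log2 fold change and could not change its sign.

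The median log2 fold change of the lowest decile of level, 0.099, was 0.063 under cyclic loess, 0.072 under quantile scaling, 0.052 with deciles taken from the ratios over input, and 0.089 to 0.098 with 1 library left out. That of the highest decile, -0.044, was -0.010 under cyclic loess, -0.0093 under quantile scaling and -0.063 (without saline 12) to -0.023 (without saline 8) with 1 library left out. Regions of 2100 to 3000 bp went from -0.042 to -0.0074 and -0.0045 under these 2 scalings, and regions over 4000 bp from 0.030 to 0.074 and 0.065, and to between 0.017 and 0.039 with 1 library left out. Small medians changed sign. The sixth decile (-0.014) was 0.0051 under quantile scaling, -0.0061 to 0.00051 with 1 library left out (the latter without saline 8) and 0.011 with deciles from the ratios over input. The seventh and eighth became 0.0038 and 0.00076 under quantile scaling. Regions of 1100 to 1500 bp (-0.0075) were 0.0070 under cyclic loess, 0.012 under quantile scaling, and -0.0066 to 0.0026 with 1 library left out (0.00075 without cocaine 9 and 0.0026 without saline 8). Regions of 3100 to 4000 bp were 0.011 and 0.0081 under the 2 scalings. Of 330 values of the 20 named regions under alternatives, 299 kept direction and side of the threshold, 22 no longer passed, 9 newly passed and 0 reversed. Only another scaling or, where the groups overlap, another pseudocount or a library left out could reverse a value. Tests on recovered reads with edgeR or DESeq2, and the gene lists, were not run. No paired analysis was run. The groups share no replicate numbers, and the labels do not state whether any libraries form pairs.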

Other observations

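The called gains and the called losses differed from the rest of the list in their overlap with other listed regions. Another listed region was overlapped by 4.86% of the called gains and by 11.4% of the called losses. The share was 34.3% of the regions not called and 31.1% of all regions. The list holds overlapping regions of opposite deposited direction, and regions that overlap none were tested alone as an alternative. These values carry no test.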
